A study of Mus musculus with 6 samples.

Results

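The enzymes of the methionine cycle and of transsulfuration were examined as 10 genes, *Mat2a*, *Mat2b*, *Ahcy*, *Ahcyl1*, *Ahcyl2*, *Mtr*, *Mtrr*, *Mtap*, *Cbs* and *Cth*, which were taken by symbol from the gene-name column of the deposited tables. All 10 were listed among the 35602 genes of the count table and among the 34714 genes of the other table pair. Methionine is activated to S-adenosylmethionine (SAM), the methyl donor of most cellular methylation, and each methyl transfer leaves S-adenosylhomocysteine, which is hydrolysed to homocysteine. Homocysteine is either remethylated to methionine or condensed with serine and cleaved to cysteine, the route called transsulfuration. Activated T cells draw on methionine for protein synthesis and for the methylation of RNA, DNA and histones.

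The cells were CD4+ T cells from mouse spleen, stimulated through CD3 and CD28 for 72 h and given either DMSO as the vehicle or MAPK13-IN-1, which blocks the *Mapk13* kinase. Each of the 2 groups, called MAPK13-inhibitors and DMSO, had 3 libraries. For replicates 2 and 3 the labels give a WT genotype, a dose of 17.1 µM of the inhibitor or 0.1 µl of DMSO, and addition of the agent after day 1. The paper of the study instead places the inhibitor in the culture for all 72 h, so the sources disagree and the time of exposure is not certain. For the replicate 1 pair they give the treatment only, with no genotype and no dose. Nothing in the labels says that replicates came from separate animals or cultures, so the p-values measure the spread between these libraries, which may be technical. Replicates 2 and 3, made with poly-T beads from 3 µg of RNA, are given as read counts, with totals of 26874805 and 28487403 in DMSO and of 33854760 and 32617702 in MAPK13-inhibitors. The replicate 1 pair, made from 2 µg of RNA with a stranded kit, is given as values read here as FPKM (fragments scaled to transcript length and library size). That unit is not stated and was inferred from the numbers themselves. Its depth is unknown and it entered no test.

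Which transcripts of the pathway differed between the treatments was asked first in the 4 counted libraries. *Cth*, which encodes the enzyme that releases cysteine from cystathionine, was 7.88-fold lower with MAPK13-inhibitors. *Mat2a*, the catalytic subunit that makes SAM, was 1.76-fold lower, and *Ahcy*, the S-adenosylhomocysteine hydrolase, was 1.53-fold lower. *Ahcyl1* and *Mtrr* were also lower, and *Ahcyl2* was 1.21-fold higher. *Mat2b*, *Mtr*, *Mtap* and *Cbs* did not pass the threshold of an adjusted p of 0.05.

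In all, 6 of the 10 genes were called, 5 lower and 1 higher, in a fit over 16269 genes of which 63.8% were called, 32.3% lower and 31.5% higher. The number of called genes was near that background and is therefore not a result about these enzymes. All 10 had passed the filter on low counts. Normalised read counts (CPM, counts scaled to library size with TMM factors) were apart between the groups for 9 genes, 7 of them below DMSO and 2 above, against 83.0% of all tested genes, 41.4% below and 41.7% above. The median log2 fold change of the 10 genes was -0.40, and that of all tested genes was 0.01. In the replicate 1 pair, the median log2 ratio of the 10 genes, on the scale of log2(FPKM + 1), was -0.18, and that of all listed genes was 0.00. The 6 called genes had the same sign there in 6 of 6 cases, and over all called genes listed in both tables the share was 65.9%.

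Markers of splenic cell types moved between the same libraries. Scaled by library totals, the summed level of the 9 listed of 10 CD4 T cell markers was 1855 and 1882 CPM in DMSO and 1145 and 1256 CPM in MAPK13-inhibitors, with *Cd5* the most abundant in DMSO and *Cd4* in the inhibitor libraries, and none at 0. Of these 9, 8 were lower, and the marker not called was *Cd4* itself, with an adjusted p of 0.993 (edgeR, Benjamini-Hochberg). The summed level of the 10 listed of 12 B cell markers was 1068 and 1041 CPM in DMSO and 1366 and 1377 CPM in MAPK13-inhibitors, with *Pax5* the most abundant in the inhibitor libraries, 7 higher, 1 lower and none at 0. *Pax5*, a transcription factor of B cells, was at 171 and 161 CPM in DMSO and at 276 and 281 CPM with the inhibitor, so the counted libraries labelled CD4+ T cells also held B cell transcripts. The authors' methods describe a kit that isolates CD4+ T cells from spleen, a step meant to leave the other cell types behind. The summed level of 10 macrophage and dendritic cell markers was 15.4 and 14.6 CPM against 53.7 and 45.6 CPM, with *Cd68* the most abundant and 6 of 8 tested higher. Of the higher ones, *C1qb*, at 2 and 0 counts in DMSO, passed the filter only through the inhibitor libraries, so it could only count as higher. The summed level of 8 erythroid markers was 7.52 and 7.20 CPM against 94.4 and 67.1 CPM, with *Hbb-bs* the most abundant in the inhibitor libraries and 6 of 7 tested higher. Of the higher ones, *Slc4a1*, at 0 and 3 counts in DMSO, passed the filter only through the inhibitor libraries. Its direction was fixed before the test. The pair of CD8 T cell markers summed to 11.2 and 10.4 CPM against 5.76 and 8.16 CPM. NK cell and neutrophil markers summed to under 1 CPM in each library, with *Klra8* and *S100a9* at 0. The NK cell sum was 0 and 0.140 CPM against 0.679 and 0.245 CPM. The neutrophil sum was 0.223 and 0.281 CPM against 0.857 and 0.950 CPM. Its 1 tested marker, *Mpo*, was higher, but it passed the filter only through the inhibitor libraries. The part of these markers in the values of the 10 enzymes was not tested. In bulk RNA, fewer cells of a type and less RNA per cell cannot be told apart. From DMSO to the inhibitor in the replicate 1 pair, the sums went from 1460 to 1318 FPKM for CD4 T cell markers, from 4.38 to 15.2 for macrophage and dendritic cell markers and from 0.931 to 1.94 for erythroid markers, each in the direction of the counts. They went from 47.2 to 35.0 FPKM for B cell markers and from 3.49 to 8.39 for CD8 T cell markers, both against the counts. NK cell and neutrophil markers were again under 1 FPKM in sum, from 0.0784 to 0.193 and from 0.737 to 0.455.

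**Figure D1:**
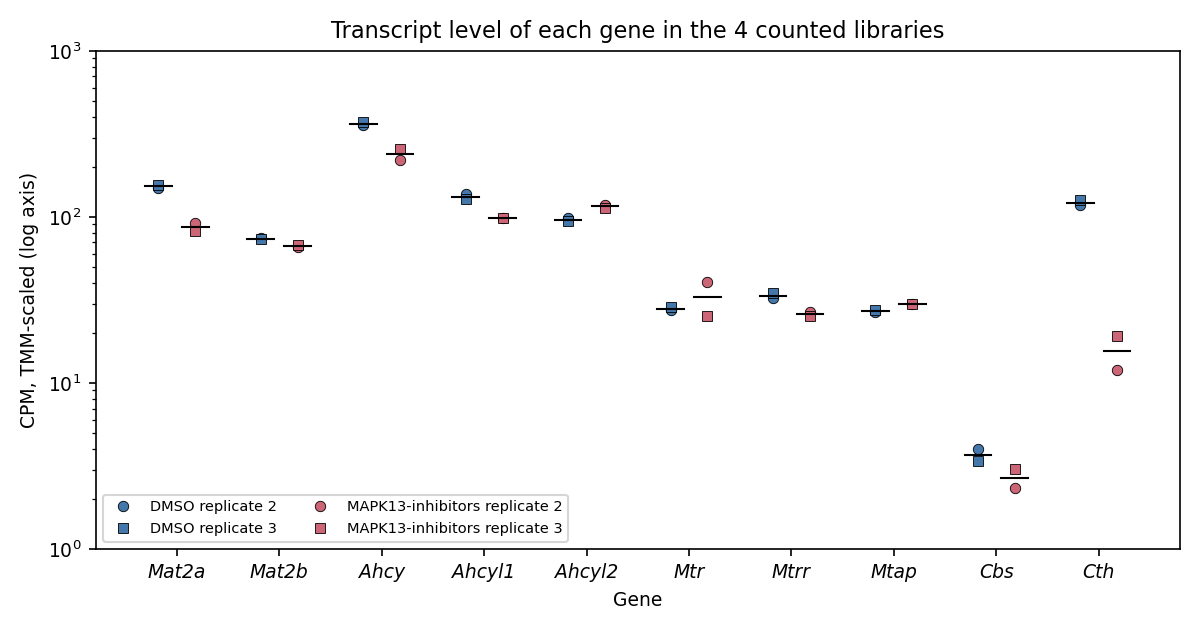
TMM-scaled CPM (log axis) of each of the 10 genes in the 4 counted libraries, with a point for each library and a bar for the group mean. *Cth* lies at 117 and 126 CPM in DMSO and at 11.9 and 19.1 CPM in MAPK13-inhibitors, and only *Mtr* overlaps between the groups.

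SAM synthesis was examined first. *Mat2a* (chr6:72432799-72439558, minus strand, GRCm38, 8 exons in its longest transcript) encodes the methionine adenosyltransferase of cells outside the liver. It stood at 150 and 156 CPM in DMSO and at 92.3 and 81.8 CPM in MAPK13-inhibitors. Both inhibitor libraries were below both DMSO libraries, and the gap was wider than either group's spread. Means were 153 ± 4.33 CPM in DMSO and 87.1 ± 7.42 CPM with the inhibitor (SD, n = 2 each). *Mat2a* had a log2 fold change of -0.81 (SE 0.0705, 95% interval -0.97 to -0.66), with an adjusted p of 4.08e-06 (edgeR quasi-likelihood test, Benjamini-Hochberg). *Mat2a* in the replicate 1 pair was 83.3 FPKM in DMSO and 56.7 FPKM with the inhibitor. *Mat2a* shares exonic bases with *Particl*, a transcript on the opposite strand with 53 to 67 counts in DMSO and 30 to 52 with the inhibitor, and the strand setting of the counting is not given in the sources used here, so reads of the pair cannot be told apart. *Mat2a* counts ranged from 2772 to 4248. A processed pseudogene, *Gm9523*, matched 95.2% of 1065 bases of the *Mat2a* transcript and has no values listed.

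*Mat2b* (chr11:40679314-40695203, minus strand) encodes the regulatory subunit that binds the *Mat2a* product. It stood at 74.6 and 73.1 CPM in DMSO and at 66.1 and 67.2 CPM with the inhibitor. The inhibitor libraries were both below the DMSO libraries, with little spread in either group. The change of *Mat2b*, a log2 fold change of -0.15 (SE 0.0645, 95% interval -0.29 to -0.01), did not pass, with an adjusted p of 0.0658 (edgeR quasi-likelihood test, Benjamini-Hochberg). Without MAPK13-inhibitors replicate 3, a fit that left 1 inhibitor library, the log2 fold change was -0.17. The highest adjusted p over 11 alternatives was 0.773 (edgeR, Benjamini-Hochberg), with libraries scaled by their totals. *Mat2b* in the replicate 1 pair was 39.8 and 40.6 FPKM, with DMSO given first here and for the genes that follow. Counts of *Mat2a* per count of *Mat2b* were 2.01 and 2.14 in DMSO and 1.40 and 1.22 with the inhibitor. The same quotient of FPKM was 2.09 in DMSO and 1.40 with the inhibitor. The quotient was thus lower with the inhibitor in both tables, with no overlap between the groups of the count table.

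Hydrolysis of S-adenosylhomocysteine is the task of *Ahcy* (chr2:155059310-155074497, minus strand), whose product removes an inhibitor of methyltransferases. *Ahcy* stood at 356 and 370 CPM in DMSO and at 220 and 255 CPM with MAPK13-inhibitors. The groups did not overlap, and the spread was wider with the inhibitor than in DMSO. The means were 363 ± 10.4 CPM and 238 ± 24.5 CPM (SD, n = 2 each). *Ahcy* had a log2 fold change of -0.61 (SE 0.0699, 95% interval -0.77 to -0.45), with an adjusted p of 2.97e-05 (edgeR quasi-likelihood test, Benjamini-Hochberg). *Ahcy* in the replicate 1 pair was 86.0 and then 64.4 FPKM. Reads of *Ahcy* are uncertain, since *Gm4737* on chromosome 16 matches 99.7% of 2083 aligned bases of its transcript and the counting could split reads between them. *Gm4737* had 764 and 852 counts in DMSO and 626 and 707 with the inhibitor, against 7825 to 10068 for *Ahcy*. In the replicate 1 pair *Gm4737* was at 28.7 and 21.8 FPKM, against 86.0 and 64.4 FPKM for *Ahcy*. A pair of processed pseudogenes with no values listed matched 99.2% of 1299 bases and 94.5% of 1128 bases. With the counts of *Ahcy* and *Gm4737* summed, an alternative chosen after seeing the data, the log2 fold change was -0.61 (SE 0.0701).

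*Ahcyl1* and *Ahcyl2* encode relatives of the hydrolase that bind the inositol trisphosphate receptor and are not known to replace it in the cycle. *Ahcyl1* (chr3:107663118-107696560, minus strand) stood at 137 and 128 CPM in DMSO and at 98.2 and 98.5 CPM with the inhibitor. *Ahcyl2* (chr6:29768011-29912310, plus strand) stood at 97.9 and 94.4 CPM in DMSO and at 118 and 114 CPM with the inhibitor. The relatives thus moved in opposite directions, each with no overlap between groups. *Ahcyl2* shares exonic bases with a transcript on the opposite strand that has no values listed. *Ahcyl1* had a log2 fold change of -0.43 (SE 0.0622) and an adjusted p of 0.000154 (edgeR quasi-likelihood test, Benjamini-Hochberg). *Ahcyl2* had a log2 fold change of 0.27 (SE 0.0613, 95% interval 0.13 to 0.41) and an adjusted p of 0.00295 (edgeR quasi-likelihood test, Benjamini-Hochberg). Without DMSO replicate 3, a fit that left 1 DMSO library, the log2 fold change of *Ahcyl2* was 0.24 and its call was lost. The replicate 1 pair held 30.8 and 26.3 FPKM of *Ahcyl1* and 19.9 and 24.4 FPKM of *Ahcyl2*. Counts of *Ahcyl2* per count of *Ahcyl1* were 0.714 and 0.739 in DMSO and 1.20 and 1.15 with the inhibitor, and the same quotient of FPKM was 0.645 and 0.927.

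Remethylation of homocysteine needs methionine synthase, encoded by *Mtr*, and the reductase that reactivates its cobalamin cofactor, encoded by *Mtrr*. *Mtrr* (chr13:68560780-68582149, minus strand) stood at 32.4 and 34.6 CPM in DMSO and at 26.5 and 25.1 CPM with the inhibitor. The groups were apart by more than the spread within either. The log2 fold change of *Mtrr* was -0.38 (SE 0.0880), with an adjusted p of 0.00351 (edgeR quasi-likelihood test, Benjamini-Hochberg). Its FPKM in the replicate 1 pair were 12.8 and 8.38. *Mtr* (chr13:12182712-12258113, minus strand) stood at 27.3 and 28.5 CPM in DMSO and at 40.5 and 25.4 CPM with the inhibitor. It was the only gene of the 10 whose groups overlapped in CPM, since the inhibitor libraries lay on either side of the DMSO libraries. The log2 gap between the inhibitor libraries was 0.66, and 1.79% of tested genes had a wider gap. The log2 fold change of *Mtr* was 0.24 (SE 0.172, 95% interval -0.14 to 0.62), with an adjusted p of 0.245 (edgeR quasi-likelihood test, Benjamini-Hochberg). It was -0.14 without MAPK13-inhibitors replicate 2 and 0.53 without MAPK13-inhibitors replicate 3, so its sign rested on which inhibitor library was kept. Each of these fits left 1 inhibitor library, so the spread came from the DMSO libraries alone. There the log2 gap of *Mtr* was -0.06 (replicate 2 minus replicate 3), far narrower than between the inhibitor libraries. No call is read from such fits. With DESeq2 on all 4 libraries the adjusted p was 0.539 (Benjamini-Hochberg). The replicate 1 pair held 8.09 and 7.24 FPKM.

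*Mtap* (chr4:89137122-89181081, plus strand) encodes the phosphorylase that returns methylthioadenosine, a by-product of polyamine synthesis, to the methionine salvage route. It stood at 26.8 and 27.3 CPM in DMSO and at 30.0 and 29.8 CPM with the inhibitor. Both inhibitor libraries were above both DMSO libraries, by a small margin. *Mtap* had a log2 fold change of 0.14 (SE 0.0848, 95% interval -0.04 to 0.33), with an adjusted p of 0.159 (edgeR quasi-likelihood test, Benjamini-Hochberg). When libraries were scaled by their totals, *Mtap* passed with a log2 fold change of 0.27 and an adjusted p of 0.0170 (edgeR, Benjamini-Hochberg), and the range over 11 alternatives was 0.0170 to 0.527. Upper-quartile scaling also gave a call, at 0.23. The replicate 1 pair held 11.1 and 10.5 FPKM.

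Transsulfuration runs through *Cbs*, which joins homocysteine to serine, and then *Cth*. *Cth* (chr3:157894248-157925077, minus strand) stood at 117 and 126 CPM in DMSO and at 11.9 and 19.1 CPM with MAPK13-inhibitors, from 3026 and 3437 counts and from 421 and 648 counts. Both inhibitor libraries lay far below both DMSO libraries. The means were 122 ± 6.39 CPM and 15.5 ± 5.13 CPM (SD, n = 2 each). *Cth* had a log2 fold change of -2.98 (SE 0.161, 95% interval -3.33 to -2.62), with an adjusted p of 1.97e-07 (edgeR quasi-likelihood test, Benjamini-Hochberg). Only 118 of the tested genes, or 0.725%, had a lower log2 fold change. The inhibitor libraries differed from each other by -0.67 on the log2 scale, and 1.68% of genes had a wider gap there. With each library left out in turn the log2 fold change of *Cth* lay between -3.37 and -2.67. In the replicate 1 pair *Cth* was 43.0 FPKM in DMSO and 12.7 FPKM with the inhibitor, a log2 ratio of -1.69 on the log2(FPKM + 1) scale. In that pair 10448 genes reached 1 FPKM with DMSO and with the inhibitor, and 26 of them had a lower ratio.

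*Cbs* (chr17:31608894-31637238, minus strand) had the fewest counts of the 10, with 103 and 92 counts in DMSO and 83 and 102 with the inhibitor. Scaled, these were 3.99 and 3.38 CPM and 2.34 and 3.01 CPM. The inhibitor libraries were both below the DMSO libraries, by a gap smaller than the spread within either group. *Cbs* had a log2 fold change of -0.46 (SE 0.217, 95% interval -0.95 to 0.02), with an adjusted p of 0.0841 (edgeR quasi-likelihood test, Benjamini-Hochberg). Without MAPK13-inhibitors replicate 3 it was -0.66, and without MAPK13-inhibitors replicate 2 it was -0.29. Each of these fits left 1 inhibitor library. The replicate 1 pair held 0.201 and 0.523 FPKM of *Cbs*. Stretches of 348 to 422 bases of its longest transcript matched transcripts of 3 other genes at 90.5% to 92.0% identity, so part of its few reads is uncertain. Counts of *Cth* per count of *Cbs* were 29.4 and 37.4 in DMSO and 5.07 and 6.35 with the inhibitor, and the quotient of FPKM was 214 and 24.3.

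**Figure D2:**
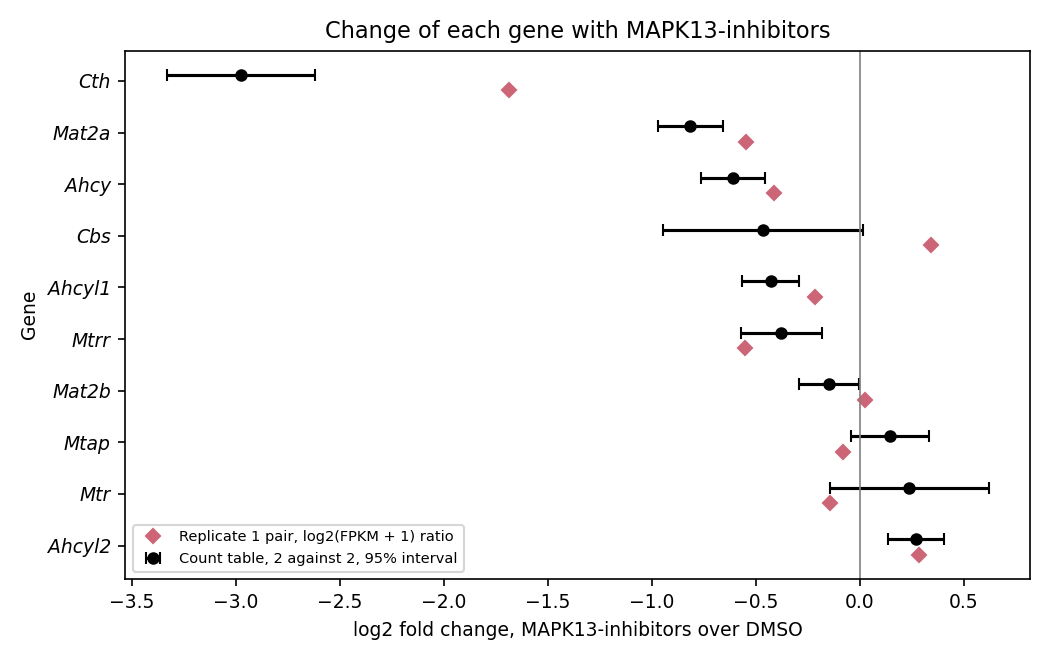
Log2 fold change of each gene, MAPK13-inhibitors over DMSO, as black points with 95% intervals from the 4 counted libraries, and the log2(FPKM + 1) ratio of the replicate 1 pair as diamonds. *Cth* lies at -2.98 and -1.69, and *Ahcyl2* at 0.27 and 0.29.

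Levels were compared between genes on the scale of CPM per kilobase of the longest annotated transcript (GENCODE M21). In DMSO the order of mean level was *Ahcy* at 143 CPM per kilobase, *Cth* at 67.1, *Mat2a* at 45.2, *Ahcyl1* at 34.3, *Mat2b* at 30.0, *Ahcyl2* at 18.7, *Mtap* at 9.67, *Mtrr* at 8.68, *Mtr* at 3.37 and *Cbs* at 0.592, and no neighbours in this order overlapped in their libraries. The place of *Mat2b* depends on the length used, since its longest transcript, of 2461 bases, is annotated as a retained intron. Over the longest coding transcript, of 2053 bases, a length chosen after seeing the data, *Mat2b* was at 36.0 CPM per kilobase in DMSO, above *Ahcyl1*, and at 32.5 with the inhibitor, apart from *Mat2a*. In the FPKM of the replicate 1 pair it was also above *Ahcyl1*. For the other 9 genes the 2 lengths are the same. With MAPK13-inhibitors *Ahcy* remained at the top of the order with 93.5 CPM per kilobase, and *Mat2b* was at 27.1, *Mat2a* at 25.7 and *Ahcyl1* at 25.5, of which *Mat2b* and *Mat2a* overlapped, as did *Mat2a* and *Ahcyl1*. *Ahcyl2* was at 22.5 CPM per kilobase and *Mtap* at 10.7. *Cth* moved from rank 2 to rank 7 of the 10, at 8.54 CPM per kilobase, where it overlapped *Mtrr* at 6.69. In the FPKM of the replicate 1 pair the rank of *Cth* was 3 in DMSO and 6 with the inhibitor.

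Promoter windows of 250 bases before and 50 after the start were listed in RefSeq (GRCm38.p6) for 9 of the 10 genes, in 14 windows, with none for *Cth*. Letters of 4 motifs were searched on both strands. CACGTG, the E-box, was in 7.15% of all 32851 windows and in 1 of the 14, that of *Cbs*. TGATGNAA, letters of the element bound by C/EBP and ATF factors, was in 3.97% of all windows and in 0 of the 14. TGACNNNGC, letters of the antioxidant response element, was in 12.4% of all windows and in 1 of the 14, a window of *Ahcyl1*. CTTTGAT, letters recognised by TCF factors, was in 3.73% of all windows and in 0 of the 14. A match is a description of the letters and not of a bound site. The 250 upstream bases of 3 genes that were lower with MAPK13-inhibitors are shown 5′ to 3′, from RefSeq on GRCm38.p6, to set the windows side by side: *Mat2a* at chr6:72439557-72439806, *Ahcy* at chr2:155074498-155074747 and *Ahcyl1* at chr3:107696561-107696810, all on the minus strand. Capitals mark TGACNNNGC.
Mat2a: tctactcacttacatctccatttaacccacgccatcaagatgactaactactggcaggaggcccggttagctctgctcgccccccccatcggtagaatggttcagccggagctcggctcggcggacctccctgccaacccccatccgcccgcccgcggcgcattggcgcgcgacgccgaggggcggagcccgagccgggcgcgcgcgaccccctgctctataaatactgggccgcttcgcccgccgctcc
Ahcy: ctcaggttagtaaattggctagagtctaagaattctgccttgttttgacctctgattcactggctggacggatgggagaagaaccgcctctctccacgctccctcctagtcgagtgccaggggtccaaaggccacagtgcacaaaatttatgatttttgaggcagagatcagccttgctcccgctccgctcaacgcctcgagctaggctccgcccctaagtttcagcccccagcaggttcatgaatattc
Ahcyl1: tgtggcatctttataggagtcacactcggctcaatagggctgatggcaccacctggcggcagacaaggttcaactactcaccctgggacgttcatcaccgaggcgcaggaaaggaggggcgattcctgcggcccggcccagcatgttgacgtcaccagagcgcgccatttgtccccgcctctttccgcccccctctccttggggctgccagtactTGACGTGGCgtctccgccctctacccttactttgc

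Other genes of the pathway were read from lists. Some lists share genes, so their counts and medians are not separate observations. Log2 fold changes with their SE are given for genes that passed the same test. The counts of called genes stand beside the 63.8% called over all tested genes, 32.3% lower and 31.5% higher, and with lists this short nothing particular to a list is read from them. Of 8 tested genes of the cycle outside the 10, 4 were lower and 3 higher, with a median of -0.20, and the most significant was *Mmachc*, a cobalamin-processing protein, at -1.49 (SE 0.216). *Mat1a*, the liver form of the SAM synthetase, and *Bhmt*, a betaine-dependent methyltransferase of the liver, had 0 counts in all 4 libraries, which allows up to 0.0886 to 0.112 CPM before TMM scaling, and *Gnmt*, the glycine methyltransferase, rose from 0.469 ± 0.169 to 1.39 ± 0.127 CPM (SD, n = 2 each). Of 7 tested genes of methionine salvage, 4 were lower and 1 higher, with a median of -0.22, among them *Srm*, spermidine synthase, at -1.61 (SE 0.0866). *Srm* did not keep this direction in the replicate 1 pair, at 56.4 and 64.5 FPKM, a log2 ratio of 0.19. Of 10 methionine transporters 6 were lower and none higher, with a median of -0.42, and of 13 RNA methyltransferases that use SAM 10 were lower and 3 higher, with a median of -0.35. Of 11 tested genes of cysteine use and sulfide 6 were lower and 4 higher, with a median of -0.71, *Got1* at -1.42 (SE 0.0639), *Suox* at -1.32 (SE 0.126) and *Ethe1* at 1.07 (SE 0.123), of which *Suox* went the other way in the replicate 1 pair, a log2 ratio of 1.08. Of 4 tested regulators of *Mat2a* transcripts 1 was lower and 2 were higher, with a median of 0.16. *Mettl16*, a methyltransferase that acts on *Mat2a* RNA, was lower at -0.25 (SE 0.0813), while *Ythdc1*, a reader of that mark, was higher at 0.96 (SE 0.0574). The median log2 ratios of all listed genes in the replicate 1 pair, in the same order, were 0.33 for the other cycle genes, -0.23 for salvage, -0.22 for transporters, -0.38 for RNA methyltransferases, 0.04 for cysteine use and sulfide and -0.42 for the regulators of *Mat2a* transcripts. Over genes that reached 1 FPKM in the 2 libraries, the median was -0.52 for 8 transporters and 0.01 for 10 genes of cysteine use and sulfide.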

How the data were processed

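RNA was measured in 6 libraries of splenic CD4+ T cells, grouped by the treatment in their labels. The authors' processing notes name fastp 0.21.0, HISAT2 2.1.0 and StringTie 2.1.5 with mm10 for replicates 2 and 3, and FastQC and HISAT2 with GRCm38 for the replicate 1 pair. The authors deposited raw counts per gene for replicates 2 and 3. For the replicate 1 pair the authors deposited values that are read here as FPKM, a unit inferred from the values and not stated. Counts were filtered by filterByExpr (minimum count 10, minimum total 15), scaled by TMM and tested by edgeR 4.0.16 in R 4.3.3, 2 libraries against 2, with Benjamini-Hochberg adjustment over 16269 genes. The floor of 3 counts covers counting error only, and the 95% intervals come from the fitted model. The pseudocount for FPKM was 1. Copies were searched with blastn 2.17.0, with at least 90% identity over 300 bases. The test was tried on simulated counts. It called 59.4% of 64 genes changed by 0.5 on the log2 scale, 73.1% of 67 changed by 1 and 98.4% of 62 changed by 2. There were 11 false calls among 15637 unchanged genes. Far fewer genes changed there than were called in the data, so these shares may not carry over. DESeq2 1.42.0, other scalings and filters, a replicate block and each library left out were alternatives. Named were the 10 enzymes, genes taken from the 4 with the smallest p of each list, all *Mat2a* transcript regulators, and the 3 liver enzymes of the cycle. *Particl*, *Gm4737* and *Gm9523*, which overlap or resemble an enzyme's transcript, and the most abundant or silent markers were named after values were seen. So were *C1qb*, *Slc4a1* and *Mpo*. Members and lists were chosen with earlier results of these data known. Protein sequences were not analysed here.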

Additional observations from a re-analysis of the deposited data

Results flagged for a closer look

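Of the 10 genes, 3 had a direction in the 4 counted libraries opposite to that in the replicate 1 pair, with both counted inhibitor libraries on the same side of both DMSO libraries. *Mat2b* had a log2 fold change of -0.15 in the counts and a log2 ratio of 0.0275 in FPKM. *Mtap* had 0.14 in the counts and -0.0800 in FPKM. *Cbs* had -0.46 in the counts and 0.34 in FPKM, or 1.05 with a pseudocount of 0.1, from 0.201 and 0.523 FPKM. None of the 3 was called in the counts by the edgeR quasi-likelihood test. The pair differs from the counted libraries in kit and in unit, it has a single library per group, and the difference between the tables was not tested.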

How the results depend on the processing

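Of 111 values of single genes under alternatives, 105 kept their side of the threshold, 1 lost its call, 5 gained a call, and no called value changed sign. With library totals as the scale the median of all genes moved to 0.14, and that of the 10 enzymes was -0.28, or -0.41 relative to the median of all genes, as with TMM. Upper-quartile scaling and scaling by totals each gave 2 enzymes called higher. With each library left out, the number called higher lay between 0 and 2 and the number called in all between 5 and 9. A lone library in a group was then assumed to vary like the others. In the replicate 1 pair the median ratio was -0.19 with a pseudocount of 0.1 and -0.22 over the genes that reached 1 FPKM in the 2 libraries, and the cause was not tested. The labels do not say whether equal replicate numbers pair the libraries. The difference between replicates 2 and 3 had a correlation across genes of 0.0050 between the groups. That shows no shared effect but cannot tell whether the libraries were paired. Adding the replicate number to the model as a replicate block called 10645 genes and 6 enzymes, 5 lower and 1 higher. DESeq2 called 8624 genes and 6 enzymes. Over the longest coding transcript, a length added after seeing the data, *Mat2b* moved from 30.0 to 36.0 CPM per kilobase in DMSO and from 27.1 to 32.5 with the inhibitor. The depth limits *Cbs* most, at 83 to 103 counts.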

Other observations

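Partners and neighbours of the pathway gave further values. Of 5 tested genes whose products are known to bind or answer to the *Ahcyl1* product, 4 were higher and none lower with MAPK13-inhibitors, with a median log2 fold change of 0.48, while *Ahcyl1* itself was at -0.43. Among them are the receptors *Itpr3* at 0.52 (SE 0.0560), *Itpr2* at 0.48 (SE 0.0659) and *Itpr1* at 0.22 (SE 0.0595). *Slc4a4*, a bicarbonate transporter, had 0 counts in both DMSO libraries and 17 and 15 with the inhibitor. That was at least 4.07-fold higher against a floor of 3 counts per library. The median was 0.48 also with this gene at its bound. *Slc4a4* passed the filter on low counts only through the inhibitor libraries. Its direction was therefore fixed before the test, and its place among the 4 higher carries no weight. In the replicate 1 pair the median of the 6 listed was 0.04, and 0.31 over the 4 that reached 1 FPKM in the 2 libraries. *Itpr2* had the opposite direction there, a log2 ratio of -0.37, while *Itpr1* was at 0.91. Over all tested genes 63.8% were called, 32.3% lower and 31.5% higher, so 4 called of 5 is a count in a short list and is not read as particular to these partners. *Nudt21*, which takes part in 3′ end choice, was higher at 0.42 (SE 0.0693) in the counts and had a log2 ratio of -0.63 in that pair, and *Cpsf6* was not called, at -0.11 (SE 0.0575).

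Of 8 tested genes of methionyl-tRNA synthesis and methionine sulfoxide repair, 2 were lower and 3 higher, with a median of 0.06, *Mars1*, the cytosolic methionyl-tRNA synthetase, at -1.34 (SE 0.0641) and *Msrb1*, a sulfoxide reductase, at 0.58 (SE 0.0793). Of 5 tested genes of cystine and cysteine uptake 4 were lower and 1 higher, with a median of -0.88. Among the lower ones, *Slc3a2* and *Slc1a5* were counted with the methionine transporters too. Of 15 tested methyltransferases of proteins and small molecules 8 were lower and 4 higher, with a median of -0.32. Of these *Prmt6* was at -1.62 (SE 0.0987) in the counts and at 10.6 and 10.1 FPKM in the replicate 1 pair, a log2 ratio of -0.06. These counts of called genes stand beside the same background. The medians of these 3 lists in that pair were 0.02, -0.63 and 0.00. A reference list of the amino acid response held 12 genes, ATF4 itself and 11 of its targets. All 12 were lower, beside 32.3% of all tested genes, with a median of -1.57. Their median in the replicate 1 pair was -1.61, where 11 were lower and 1 target was higher. The list was not tested against this background.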
